A study of Equus caballus with 25 samples.

Results

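CLDN7, CLDN8, TJP3 and PARD6B encode proteins of the epithelial tight junction. They are tight junction genes that the study's lists of changed transcripts pair with a probe on the array, and 13 other transcripts of such genes are described after them. Each of the 4 genes has 1 probe, so that 4 of the 7238 transcripts on the array are covered. RNA came from cells of bronchoalveolar lavage (BAL) fluid, the saline wash of the lower airways, and was hybridized to one-color arrays with 1 array per horse. The 25 horses fell into 7 clinically healthy controls (CTRL, labeled Control), 10 with mild equine asthma (MEA, labeled IAD) and 8 with severe equine asthma (SEA, labeled RAO). Asthmatic horses were client-owned cases sampled when they were presented. MEA cases were restricted to neutrophilic inflammation. All CTRL horses were standardbreds, whereas most diseased horses were saddle horses, and SEA-affected horses were older than the others. Effects of breed and, in SEA, of age cannot be told apart from those of disease. Horses are named by group and replicate number. Levels are log2 intensities normalized across the arrays, and a level is compared only between horses for the same probe.

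Tight junctions seal the space between neighboring epithelial cells near their apical surface and set how easily water, ions and inhaled material pass between them. Claudins are membrane proteins that form the strands of the seal. Zonula occludens proteins tie the claudins to the cytoskeleton, and the PAR polarity complex decides where along the cell border the junction is built. Shed airway epithelial cells are the usual source of such transcripts in BAL fluid, where macrophages are the main cells of healthy horses.

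Each member is read by a 60-base probe, spotted 2 times per array, and the probe sequence fixes which part of the transcript is measured. The sequences are given 5′ to 3′ as deposited. For CLDN7 (ENSECAT00000007399), bases 31 to 60 are shown, with the hexamer AATAAA, the motif of the polyadenylation signal, in capitals. Whether it acts as a signal in this transcript was not tested. For CLDN8 (ENSECAT00000021977), bases 1 to 30 are shown. For TJP3 (ENSECAT00000012651) and PARD6B (ENSECAT00000009452) the whole probe is shown, and in PARD6B the capitals mark a TGA triplet that is in frame with the first base and ends the probe.
CLDN7: tttttgtacagtAATAAAcagtatgttttg
CLDN8: gtactccagaagtcagtatgtgtagttgcg
TJP3: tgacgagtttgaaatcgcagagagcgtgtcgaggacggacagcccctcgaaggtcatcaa
PARD6B: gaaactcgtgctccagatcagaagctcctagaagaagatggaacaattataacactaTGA
The hexamer AATAAA was searched on the printed strand and occurred in 386 of the 7238 probes (5.33%), among the members in CLDN7 alone. GC content was 43.3% for the CLDN7 probe, 35.0% for CLDN8, 55% for TJP3 and 40.0% for PARD6B. The median of all probes was 45%, and their 10th and 90th percentiles were 35% and 55%.

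Between 58.2% and 90.8% of the spots of an array were well above background, and the 25 arrays lay on 4 slides. The arrays of SEA 1 and MEA 3 stood apart from others of their own group in neutrophil markers, once the data were seen. In SEA 1, the mean of 9 transcripts of neutrophil markers lay 1.51 log2 units below the CTRL mean. In the other 7 SEA-affected horses it lay between 1.36 and 3.58 above it. Among the controls, CTRL 1 lay lower than SEA 1, at -1.67 from the CTRL mean. In MEA 3 the same mean lay 3.94 above the CTRL mean, the highest of the 25 horses, against at most 1.43 in the other MEA-affected horses. Values are therefore also given without SEA 1. Without MEA 3, the differences of MEA from CTRL were -1.16 for CLDN7, -1.51 for CLDN8, -0.87 for TJP3 and -0.61 for PARD6B, and those of SEA from MEA -1.16, -0.39, -0.82 and -0.65. The 1 call this changed was that of TJP3 in MEA. Both spots of CLDN7 and TJP3 were well above background on 25 of 25 arrays, and both spots of CLDN8 and PARD6B on 22 of 25. The exceptions were SEA 1 (0 of 2 spots) and SEA 3 (1 of 2) for both genes, MEA 5 for CLDN8 and MEA 2 for PARD6B (1 of 2 each). No member spot was saturated. The median gap between both spots was 0.18 log2 units for CLDN7, 0.11 for CLDN8, 0.06 for TJP3 and 0.29 for PARD6B, well under the range between horses. All 4 members passed the intensity filter, PARD6B with 16 of 25 arrays at or above its limit of 4.5.

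In SEA-affected horses all 4 junction transcripts were lower than in CTRL, by 2.4-fold for PARD6B, 3.21-fold for TJP3, 3.72-fold for CLDN8 and 5.01-fold for CLDN7. Levels in MEA lay between those of CTRL and SEA for each gene, and between MEA and CTRL the fall was called for CLDN8 alone. Between SEA and MEA no member was called. A call needed a fold change of at least 1.5 and an adjusted p (Benjamini-Hochberg, limma) below 0.1 over all 4930 tested transcripts. The 4 genes carry a name because the study listed them as changed in SEA against CTRL in the same horses (CLDN8 also in MEA against CTRL), so that these calls are no independent evidence. As background, 16.7% of all tested transcripts were called lower in SEA than in CTRL, 6.53% in MEA than in CTRL and 0.791% in SEA than in MEA. The shares called higher were 16%, 3.25% and 1.44%. In a mixture of cells such as BAL fluid, fewer epithelial cells and less RNA of a gene per epithelial cell cannot be told apart.

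**Figure D1:**
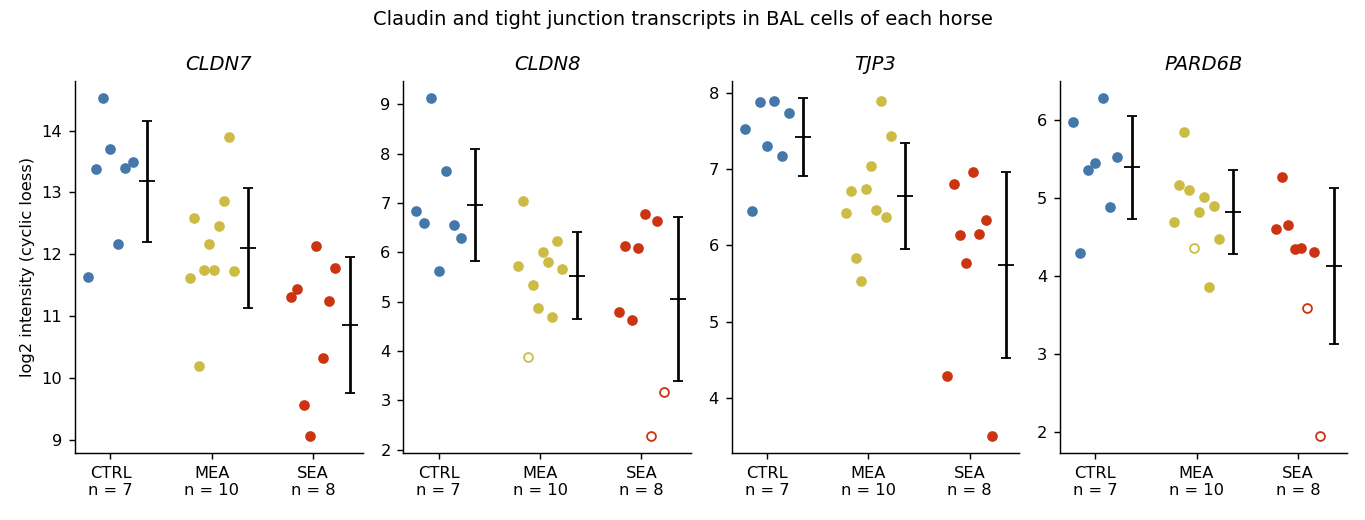
Log2 intensity of CLDN7, CLDN8, TJP3 and PARD6B (vertical axis, own scale for each gene) in each horse (7 CTRL, 10 MEA, 8 SEA). Each point is 1 horse, open points are horses with fewer than 2 spots well above background, and bars give mean ± SD. The groups overlap for every gene, and SEA 1 is the lowest point of each panel.

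CLDN7 encodes a claudin of airway and gut epithelium that lines the lateral membrane as well as the tight junction. In CTRL its log2 intensity ran from 11.63 in CTRL 7 over a median of 13.39 to 14.53 in CTRL 1. In MEA it ran from 10.21 in MEA 5 over 11.96 to 13.9 in MEA 7, and in SEA from 9.06 in SEA 1 over 11.28 to 12.13 in SEA 7. Below the lowest CTRL horse lay 6 of 8 SEA-affected horses, and SEA 5 and SEA 7 fell between CTRL 7 and CTRL 5, so that the groups overlapped narrowly. The mean was 13.18 ± 0.98 (SD, n = 7) in CTRL, 12.1 ± 0.97 (n = 10) in MEA and 10.86 ± 1.09 (SD, n = 8) in SEA. The log2 fold change of SEA against CTRL was -2.32 (SE 0.49, limma adjusted p = 0.00855), the 70th largest fall of the comparison, and -2.07 without SEA 1 (adjusted p = 0.00663). MEA differed from CTRL by -1.08 (SE 0.44, adjusted p = 0.155) and SEA from MEA by -1.25 (SE 0.45, adjusted p = 0.151), and neither was called. The MEA difference passed the threshold when CTRL 7 (-1.34, adjusted p = 0.0681) or MEA 7 (-1.28, adjusted p = 0.0524) was left out, the lowest control and the highest MEA horse. The SEA against MEA difference passed it without MEA 5 (-1.46, adjusted p = 0.0756).

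CLDN8 encodes a claudin best known for limiting the passage of cations in kidney and colon. Its log2 intensity ran from 5.62 in CTRL 2 over a median of 6.59 to 9.13 in CTRL 1. In MEA the lowest value was 3.88 in MEA 5, the median 5.69 and the highest 7.04 in MEA 7. In SEA the lowest was 2.27 in SEA 1, the median 5.44 and the highest 6.78 in SEA 5. The SEA-affected horses were split, with 4 of 8 below every control and the other 4 within the range of the controls. The control mean was raised by CTRL 1, since the next control, CTRL 4, was at 7.65. Means were 6.96 ± 1.14 (SD, n = 7) in CTRL, 5.53 ± 0.88 (n = 10) in MEA and 5.06 ± 1.66 (SD, n = 8) in SEA. SEA differed from CTRL by -1.89 (SE 0.68, limma adjusted p = 0.0484), by -1.5 without SEA 1 (adjusted p = 0.0671) and by -1.53 without CTRL 1, where the call was lost (adjusted p = 0.112). It was also lost with an exact rank sum test (adjusted p = 0.106), and it was kept at -0.85 after normexp background correction (adjusted p = 0.0743), which adds an offset that shrinks differences between low signals.

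Between MEA and CTRL, CLDN8 was the member with the largest difference, -1.43 (SE 0.45, limma adjusted p = 0.0748), and 9 of the 10 horses were below the CTRL mean, 4 of them below every control. The call was lost with the slide as a block (-1.59, adjusted p = 0.129), with quantile normalization (adjusted p = 0.103), normexp (-0.69, adjusted p = 0.182), the exact rank sum test (adjusted p = 0.112), all 25 arrays in 1 fit (adjusted p = 0.148) and the counted epithelial percentage as a covariate (adjusted p = 0.302). It was also lost when 1 of the following was omitted, given with the log2 fold change and limma adjusted p without it: CTRL 1 (-1.07, adjusted p = 0.181), CTRL 4 (-1.31, 0.158), CTRL 6 (-1.45, 0.13), MEA 2 (-1.36, 0.12), MEA 5 (-1.25, 0.115), MEA 8 (-1.34, 0.111), MEA 9 (-1.45, 0.102) or MEA 10 (-1.44, 0.101). The difference between SEA and MEA was small against its error (-0.47, SE 0.56, adjusted p = 0.657). It shrank to -0.07 without SEA 1 (adjusted p = 0.948) and to -0.2 without SEA 3 (adjusted p = 0.881).

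TJP3 encodes ZO-3, a scaffold protein of epithelial tight junctions that binds the tails of claudins. Controls were close together, from 6.46 in CTRL 5 over a median of 7.53 to 7.9 in CTRL 3. MEA-affected horses ran from 5.53 in MEA 5 over 6.59 to 7.89 in MEA 7, and SEA-affected horses from 3.49 in SEA 1 over 6.14 to 6.97 in SEA 5. All 8 SEA-affected horses lay below the CTRL mean and 6 below every control, and SEA 1 and SEA 3 were set apart from the other SEA-affected horses. The spread grew from CTRL (7.43 ± 0.51, SD, n = 7) over MEA (6.64 ± 0.7, SD, n = 10) to SEA (5.74 ± 1.22, SD, n = 8), although the spreads themselves were not compared by a test. The log2 fold change was -1.68 in SEA against CTRL (SE 0.46, limma adjusted p = 0.018), -1.36 without SEA 1 (adjusted p = 0.0148) and -0.89 after normexp (adjusted p = 0.0276). In MEA against CTRL it was -0.78 (SE 0.3, adjusted p = 0.13), and in SEA against MEA -0.9 (SE 0.43, adjusted p = 0.238). The MEA difference passed the threshold without CTRL 5 (-0.94, adjusted p = 0.0758), MEA 3 (-0.87, adjusted p = 0.0987) or MEA 7 (-0.92, adjusted p = 0.0407). Without SEA 1 the SEA against MEA difference was -0.58 (adjusted p = 0.363).

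PARD6B encodes PAR6 beta, the adaptor of the polarity complex that joins PAR3, atypical protein kinase C and Cdc42. Its signal was near the limit of the intensity filter, with 6 of 7 CTRL, 7 of 10 MEA and 3 of 8 SEA arrays at or above 4.5. CTRL ran from 4.29 in CTRL 7 over a median of 5.45 to 6.29 in CTRL 1, MEA from 3.85 in MEA 1 over 4.86 to 5.85 in MEA 7, and SEA from 1.94 in SEA 1 over 4.35 to 5.27 in SEA 6. Only SEA 1 and SEA 3 among the SEA-affected horses were below every control, and CTRL 7 was itself low. Means were 5.4 ± 0.66 (SD, n = 7) in CTRL, 4.82 ± 0.54 (n = 10) in MEA and 4.13 ± 1 (SD, n = 8) in SEA. SEA differed from CTRL by -1.27 (SE 0.42, limma adjusted p = 0.0348) and by -0.95 without SEA 1 (adjusted p = 0.0294). After normexp background correction it was -0.19 and not called (adjusted p = 0.172). MEA differed from CTRL by -0.57 (SE 0.28, adjusted p = 0.233), and past the threshold without CTRL 7 (-0.76, adjusted p = 0.0893). SEA differed from MEA by -0.69 (SE 0.35, adjusted p = 0.261), and by -0.38 without SEA 1 (adjusted p = 0.413).

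**Figure D2:**
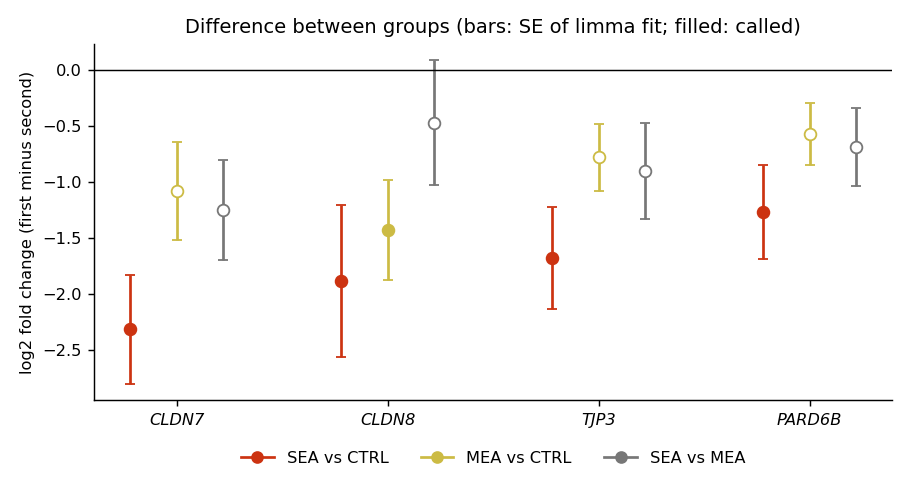
Log2 fold change of each member (vertical axis) in SEA against CTRL, MEA against CTRL and SEA against MEA, with the SE of the limma fit as bars. Filled points passed the threshold for a call, which the 4 SEA against CTRL differences did, and CLDN8 in MEA against CTRL.

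Arrays of the same slide were compared with each other as well, as a description. The 4 genes of a slide come from the same arrays and vary together, so the counts are not of independent values. Of the 16 differences between SEA and CTRL within a slide (4 genes on 4 slides), 15 were below 0, with the deepest value -5.11 for CLDN8 on slide 1, where the only SEA array was SEA 1. The exception was PARD6B on slide 4 (0.05). Between MEA and CTRL, 14 of 16 were below 0, and the exceptions were CLDN7 (1.09) and PARD6B (0.83) on slide 4, where the only CTRL array was CTRL 7. That slide held 5 of the 10 MEA arrays, and TJP3 was at -0.07 and CLDN8 at -0.72 there. Between SEA and MEA, 13 of 16 were below 0. On slides 2 and 3, which held 6 of the 8 SEA arrays, those differences ran from -0.61 to 0.45, whereas on slides 1 and 4, with 1 SEA array each, they ran from -3.07 to -0.78. Those arrays were SEA 1 and SEA 8. The MEA arrays on slides 2 and 3 were MEA 4, MEA 5 and MEA 6. MEA 5 was the lowest MEA-affected horse for CLDN7, CLDN8 and TJP3.

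The deepest falls were found in few horses, and in the 2 lowest, SEA 1 and SEA 3, all 4 genes were low. Each horse was set against the CTRL mean of each gene, and the 4 deviations were averaged, as a description with no test. SEA 1 lay lowest, at -4.05 log2 units, with -4.12 for CLDN7, -4.69 for CLDN8, -3.93 for TJP3 and -3.46 for PARD6B. Since no spot of CLDN8 or PARD6B was well above background in SEA 1, those 2 values and the mean that holds them are limits of the measurement and not exact falls. SEA 3 followed at -3.09, with -3.61, -3.79, -3.14 and -1.81 in the same order, where 1 of 2 spots of CLDN8 and of PARD6B was well above background. For CLDN7 and TJP3, measured above background in every horse, SEA 1 and SEA 3 were also the lowest. These were the only 2 horses that lay below every control in all 4 genes. The third was a mildly affected horse, MEA 5 (-2.16), with CLDN7 at -2.98 and CLDN8 at -3.08 but PARD6B at -0.7, and SEA 8 (-1.93) and MEA 2 (-1.44) came next.

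At the other end, SEA 5 and SEA 7 lay only 0.7 below the CTRL mean on average, less than CTRL 7 (-0.82) and CTRL 5 (-0.79), and neither was below every control in any gene. MEA 7 lay above the CTRL mean in all 4 genes (0.43 on average). The median of the averaged deviation was -1.32 in SEA and -1.08 in MEA, and the lowest horse was at -4.05 and -2.16. CLDN8 or CLDN7 was the lowest of the 4 genes in all 8 SEA-affected horses and in 8 of 10 MEA-affected horses. The same held in CTRL 2, CTRL 3, CTRL 5 and CTRL 7. These genes also varied most among controls (SD 0.98 for CLDN7 and 1.14 for CLDN8, against 0.51 for TJP3 and 0.66 for PARD6B). In MEA 8, CLDN8 alone was low (-2.26), while the other 3 genes lay between -0.59 and -0.38.

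**Figure D3:**
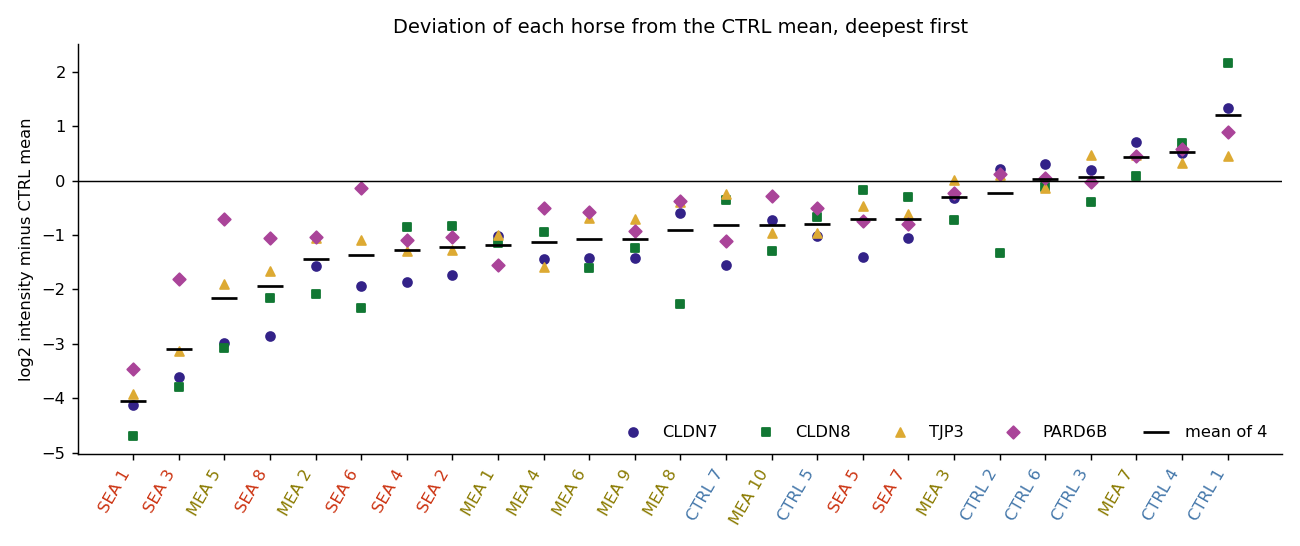
Deviation of each of the 25 horses from the CTRL mean in log2 units (vertical axis), for the 4 genes and their mean, with horses ordered from the deepest mean fall. SEA 1 and SEA 3 are at the left with means of -4.05 and -3.09, and SEA 5 and SEA 7 lie among the controls.

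The 4 genes rose and fell together between horses. Since the groups differ in level, the group mean was first subtracted from each gene. Over the 25 horses, the 6 pairs then had Pearson correlations between 0.66 (CLDN8 with PARD6B) and 0.87 (CLDN7 with TJP3), and Spearman correlations between 0.63 and 0.89. All 6 passed 0.05 in permutation tests within groups, two-sided, after adjustment over the 24 pair tests (adjusted p from 8e-05, based on the smallest p that the resamples can give, to 0.00308). Without the 2 horses farthest from the median of the first gene of a pair, the correlations lay between 0.39 and 0.83. CLDN8 with PARD6B fell to 0.39 without SEA 1 and CTRL 1, and no longer held (permutation p = 0.0682).

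Within single groups the covariation rested in part on the extreme horses. In SEA, the 6 Pearson correlations lay between 0.74 and 0.97, and all 6 passed in exact permutation tests (highest adjusted p = 0.0381, n = 8). Without SEA 1 and SEA 3, CLDN7 still rose with TJP3 (r = 0.88, exact permutation p = 0.0236, n = 6) and with CLDN8 (r = 0.79, exact permutation p = 0.0431, n = 6). The 3 pairs that hold PARD6B then had correlations of 0.19, -0.38 and 0.35, with exact permutation p of 0.66, 0.506 and 0.525 (n = 6), so that in SEA these 3 relations rest on those horses. CLDN8 with TJP3 had 0.7 and missed the threshold (exact permutation p = 0.115, n = 6). In MEA, CLDN7 with TJP3 (r = 0.9, adjusted permutation p = 0.00208) and CLDN7 with CLDN8 (r = 0.8, adjusted permutation p = 0.0132) passed. Without MEA 5 and MEA 7 they were 0.69 (permutation p = 0.0569) and 0.19 (permutation p = 0.648), and the second no longer held. In CTRL, CLDN7 with PARD6B passed (r = 0.97, adjusted exact permutation p = 0.00179, n = 7), and the other 5 pairs lay between 0.46 and 0.75.

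The transcripts most like each member were found by the correlation of group-centered values over the 25 horses, among 4929 tested transcripts, with a median correlation of 0 to 0.03. CLDN7 was most like LSR (0.96), an angulin of the corners where 3 cells meet, LNX1 (0.94), a ubiquitin ligase, and EPCAM (0.934), an adhesion molecule of epithelial cells. TJP3 was most like TMEM205 (0.942), CXCL17 (0.941), a chemokine of mucosal surfaces, and again EPCAM (0.939). PARD6B was most like NKX2-1 (0.944), a transcription factor of lung and airway epithelium, ARHGAP32 (0.919) and DOCK9 (0.913), regulators of small GTPases. Among the 3 transcripts most like CLDN8 was LEAP2 (0.895), an antimicrobial peptide gene. The nearest other member stood only at rank 39 for CLDN7, 55 for TJP3, 95 for CLDN8 and 117 for PARD6B. Names were available only for transcripts the study listed as changed, and these correlations are a description over arrays that also share slide and signal strength.

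Of 13 other transcripts of tight junction and polarity genes, 9 passed the filter (ESAM, PARD3B, MLLT4 and AMOT did not). This list could hold only genes that the study listed as changed on these horses, so its direction is not independent evidence. It leaves out genes that the study tied to tight junction organization and reported as upregulated in MEA. Counts of lower and higher calls therefore hold for the listed transcripts only. In SEA against CTRL, 8 of 9 were called lower and none higher, with a median log2 fold change of -1.41 against -0.01 over all tested transcripts. Of all tested transcripts, 16.7% were called lower in that comparison. The largest falls were those of LSR (-2.22, SE 0.53, adjusted p = 0.0129) and ILDR1 (-2.21, SE 0.5, adjusted p = 0.0103), both angulins, and of PRKCZ, an atypical protein kinase C and partner of PAR6 (-1.73, SE 0.5, adjusted p = 0.0224), by limma. Of the other claudins, CLDN12 was called (-1.04, adjusted p = 0.0144) and CLDN10 was not (-0.84, SE 0.52, adjusted p = 0.24).

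In MEA against CTRL, where 6.53% of all tested transcripts were called lower, 4 of the 9 were called lower and none higher (median -0.88 against 0.03). They were F11R, the junctional adhesion molecule JAM-A (-1.27, adjusted p = 0.0482), CLDN10 (-1.08, adjusted p = 0.0399), PRKCZ (-1.04, adjusted p = 0.049) and CLDN12 (-0.95, adjusted p = 0.0694). CLDN10 was thus called in MEA and not in SEA, although the direct difference of SEA against MEA was 0.24 (SE 0.48, adjusted p = 0.802). Its mean levels, 4.22 in MEA and 4.46 in SEA, lay under the filter limit of 4.5. Both spots of CLDN10 were well above background on 17 of 25 arrays. F11R and CLDN12 lay just above that limit in MEA (4.71 and 4.66) and in SEA (4.58 and 4.57), whereas PRKCZ was at 7.59 in MEA. Whether the calls of these genes hold after normexp was not tested. Between SEA and MEA none of the 9 was called, and the median was -0.58.

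Of 11 transcripts of adherens junction and desmosome genes, drawn from the same lists of changed transcripts, 9 were called lower and none higher in SEA against CTRL (median -1.53). The shares called lower over all tested transcripts were 16.7% in SEA and 6.53% in MEA, each against CTRL. The largest falls belonged to DSP, the desmosomal plaque protein desmoplakin, with 2 of its 3 transcripts at -2.33 (adjusted p = 0.0216) and -2.03 (adjusted p = 0.0308), and to PKP2, a plakophilin (-2.08, adjusted p = 0.0534). In MEA against CTRL 2 were called lower, 1 transcript of DSP (-1.16, adjusted p = 0.085) and PKP3 (-0.99, adjusted p = 0.0815), and the median was -0.59. None was called between SEA and MEA (median -0.87).

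Markers of epithelial cells were lower along with the junction genes. They too could be named only where the study listed a transcript as changed in these horses, so that their counts are largely fixed by that choice and are no evidence of a direction. As background, 16.7% of all tested transcripts were called lower in SEA and 6.53% in MEA. Of 8 transcripts of general epithelial markers (EPCAM, KRT18, SPINT1, SPINT2, RAB25, OVOL2 and GRHL1), 8 were called lower in SEA and 6 in MEA, with medians of -2.09 and -1.29. Of 12 transcripts of ciliated cell markers, 12 were called lower in both (medians -2.52 and -1.92). Of 6 transcripts of secretory cell markers, 4 were called lower and 1 higher in SEA (median -1.83), and 1 lower and 1 higher in MEA (median -0.86). The summed linear intensity of the epithelial markers ranged from 4510 to 18200 in CTRL, from 1300 to 10900 in MEA and from 197 to 5440 in SEA. SEA 1, SEA 3 and MEA 5, the 3 horses with the deepest junction falls, were also the 3 lowest in epithelial markers, with deviations of -4.86, -3.76 and -2.42 from the CTRL mean. What part the amount of epithelial RNA had in the junction values was not tested.

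Within groups the relation was close. Over 25 group-centered horses, the mean of the epithelial markers correlated with TJP3 at r = 0.96 (Spearman 0.93), with CLDN7 at 0.91 (Spearman 0.94), with CLDN8 at 0.86 (Spearman 0.79) and with PARD6B at 0.81 (Spearman 0.81). The permutation p was 1e-05, the smallest the resamples can give, for the first 3 and 4e-05 for PARD6B (adjusted p of 5e-05 and 0.000133 over 20 tests of marker lists). Without the 2 horses whose marker mean lay farthest from that of their group, r was 0.91, 0.93, 0.72 and 0.62. Ciliated cell markers gave r between 0.72 and 0.86, and secretory cell markers between 0.49 and 0.77. When the epithelial marker mean was subtracted from the mean of the 4 junction genes in each horse, the difference was -0.69 ± 0.2 (SD, n = 7) in CTRL, -0.51 ± 0.27 (n = 10) in MEA and -0.41 ± 0.33 (n = 8) in SEA. On this relative scale CLDN7 was at 4.25 ± 0.38 in CTRL and 4 ± 0.48 in SEA, and CLDN8 at -1.98 ± 0.84 and -1.8 ± 0.52. PARD6B was higher in SEA (-2.73 ± 0.76) than in CTRL (-3.54 ± 0.24), and TJP3 likewise (-1.12 ± 0.33 against -1.51 ± 0.35). With the mean of the ciliated cell markers subtracted instead, the 4 genes were at -1.81 ± 0.44 in CTRL, -0.92 ± 0.82 in MEA and -1.16 ± 0.59 in SEA, higher in both disease groups than in CTRL. PARD6B was near the limit of the intensity filter, with 3 of 8 SEA arrays at or above 4.5. The marker lists hold only transcripts that the study listed as changed. These relative values therefore do not show the amount of junction RNA per epithelial cell, and they are given as a description with no test.

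**Figure D4:**
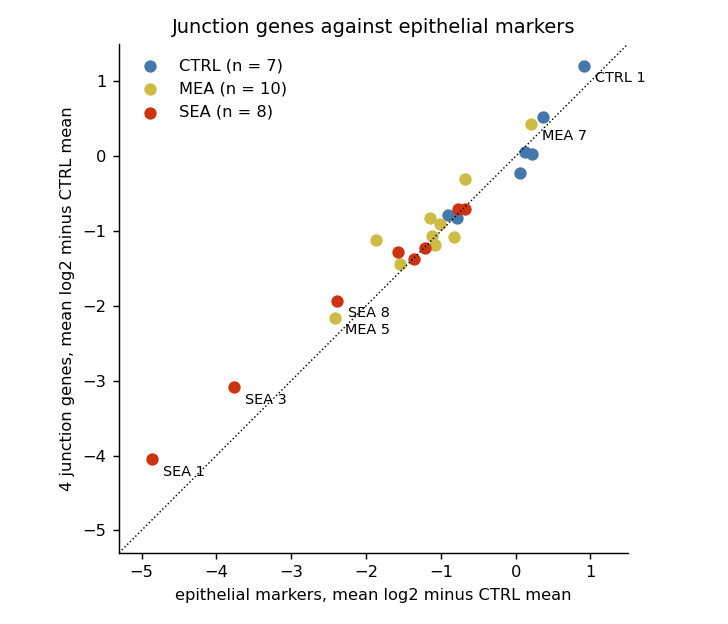
Mean log2 intensity of the 4 junction genes (vertical axis) against that of 8 epithelial marker transcripts (horizontal axis), both as the deviation from the CTRL mean, with 1 point per horse and the line of equality dotted. Horses of the 3 groups run from SEA 1 (-4.86 and -4.05) to CTRL 1 (0.91 and 1.21). SEA 1 and SEA 3 lie above the line of equality, and no line was fitted.

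Markers of other BAL cells, named from the same lists, gave other values. Over all tested transcripts, 16% were called higher and 16.7% lower in SEA against CTRL, and 3.25% and 6.53% in MEA against CTRL. Neutrophil markers (9 transcripts) were called higher in SEA for 7 and lower for 1 (median 1.9), and for 0 and 1 in MEA. Their correlation with the junction genes within groups lay between 0.18 and 0.46, and it passed 0.05 after adjustment for TJP3 (r = 0.46, adjusted permutation p = 0.0442) but fell to 0.05 without the 2 farthest horses (permutation p = 0.814). Macrophage markers (5 of 6 transcripts tested) were called higher in SEA for 3 (median 0.84) and for 0 in MEA. The other 2 tested were lower in SEA and not called, MARCO at -1.12 (adjusted p = 0.162) and VSIG4 at -0.54 (adjusted p = 0.578). The share of macrophages that the study counted on smears was lower in SEA than in CTRL. The mean of the macrophage markers ran against all 4 junction genes, with r from -0.62 for PARD6B (adjusted permutation p = 0.00104) to -0.49 for TJP3 (adjusted permutation p = 0.0118). Without the 2 farthest horses, r was -0.61 for PARD6B (permutation p = 0.00312) and -0.47 for TJP3 (permutation p = 0.03), whereas CLDN7 (-0.4, permutation p = 0.0757) and CLDN8 (-0.35, permutation p = 0.125) no longer held.

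For the epithelial share counted under the microscope, no such relation was detected. It was available for each horse from the study's differential counts of BAL smears. Its mean was higher in both disease groups than in CTRL, whereas the junction transcripts were lower there. That difference in the counted share was not tested, and correlations on values centered within groups leave it out. Over the 25 group-centered horses, its Pearson correlation was 0.22 with CLDN7, 0.25 with CLDN8, 0.28 with TJP3 and -0.02 with PARD6B (Spearman 0.34, 0.28, 0.35 and 0.12). None passed in permutation tests adjusted over 16 tests (adjusted p = 0.799, 0.799, 0.799 and 0.939), and without SEA 2 and SEA 3, the horses farthest from the median, r was 0.11, 0.09, 0.16 and -0.11. In single groups r lay between -0.34 and -0.04 in CTRL, between 0.16 and 0.47 in MEA and between -0.06 and 0.45 in SEA, and the lowest adjusted p was 0.799 (exact permutation tests in CTRL and SEA). A p above the threshold does not show that the measures are unrelated at this number of horses. Epithelial cells were few among the cells counted per smear, and the error of the counts was not tested. No epithelial cell was counted in CTRL 1, CTRL 2 and SEA 3. Their epithelial markers lay at 0.91 (the highest horse), 0.06 and -3.76 from the CTRL mean. Neutrophils prevailed on the smear of SEA 1 and were few on that of MEA 3, whereas their neutrophil markers lay at -1.51 and 3.94 from the CTRL mean. Whether arrays and smears match in these horses was not tested. The counted share of neutrophils gave correlations between -0.63 and 0.02 in MEA and between -0.3 and -0.02 in SEA. The strongest, PARD6B in MEA (r = -0.63, permutation p = 0.0516, adjusted over 8 tests 0.413), became -0.09 without the 2 farthest horses.

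**Figure D5:**
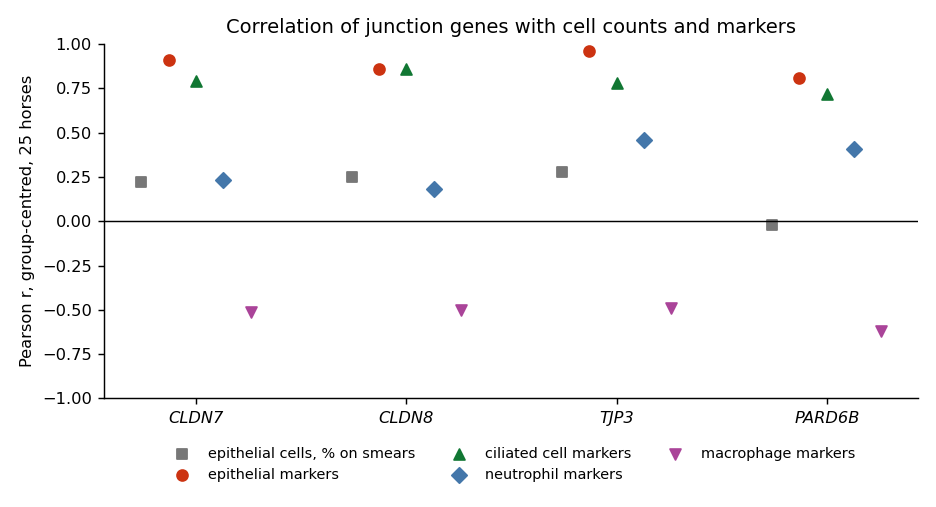
Pearson correlation over 25 group-centered horses (vertical axis, from -1 to 1) of each junction gene with the counted percentage of epithelial cells and with the mean of 4 marker lists. Epithelial markers lie between 0.81 and 0.96 for the 4 genes, and the counted percentage between -0.02 and 0.28.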

How the data were processed

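RNA from BAL cells of 25 horses was measured on one-color Agilent arrays that carry 14476 spots, 2 per equine transcript. The authors deposited spot intensity values from Feature Extraction, background-corrected within each array, and 1 table of intensities that they had normalized by cyclic loess (R 2.11.1 per the labels). Log2 intensities of the spots were normalized by cyclic loess (span 0.7, 3 iterations), spots of a probe were averaged without outlier spots, and 4930 transcripts were kept, those not below 4.5 on 19 or more of the 25 arrays. The methods give 4.5 without a scale, and it was taken as log2. The study reports more transcripts after its own filter, so that filter was not reproduced. The values obtained correlated at 0.9994 with the authors' normalized table. Groups were compared with limma 3.58.1 (lmFit, eBayes) in R 4.3.3 on the arrays of both groups. This replaced the nonparametric test of the methods, and the methods' thresholds for fold change and false discovery rate were kept. Adjusted p values of differences are limma's. Correlations used two-sided permutation tests (numpy 2.4.6), exact for 8 or fewer horses and otherwise with 100000 resamples, within groups for centered values. No pair of arrays held identical values. Precision is limited by the number of arrays. The steps were tested on simulated data.

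Symbols came from the study's lists of changed transcripts, and cell percentages from its table of cell counts. The build behind the transcript identifiers is not given in the sources used here, so no positions are printed. Members and lists were chosen with earlier results of these data known. The genes named besides the members are the called transcripts with the 3 largest falls in each junction list and comparison, the 3 transcripts most like each member, and cell type markers from general knowledge. Some genes that this rule or the lists would include are not reported here. The other claudins and single horses were named after their values were seen, and the tests against marker lists were added after the data were seen. Alternatives were 75th percentile scaling, quantile normalization, normexp (offset 50), the authors' normalized values, no filter, a filter that asks for both spots well above background on 7 or more arrays, an exact rank sum test, all 25 arrays in 1 fit, the slide or the replicate number as a block, the epithelial percentage as a covariate, and each horse left out in turn. Every group had arrays with each member well above background, so that no group mean was replaced by a bound, although CLDN8 and PARD6B in SEA 1 are limits.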

Additional observations from a re-analysis of the deposited data

How the results depend on the processing

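No difference of a member between groups changed its sign under any alternative. CLDN7 and TJP3 stayed called in SEA against CTRL under every alternative. With normexp correction, TJP3 shrank to -0.89 and CLDN8 to -0.85 there. PARD6B lost its call after normexp (-0.19), and CLDN8 with the exact rank sum test (-1.89). In MEA against CTRL, CLDN8 lost its call with quantile normalization (-1.53), normexp (-0.69), the rank sum test (-1.43), all 25 arrays in 1 fit (-1.43), the slide as a block (-1.59) and the epithelial percentage as a covariate (-1.48). Replicate numbers are shared between groups but pair no animals: same-numbered arrays correlated between -0.44 and 0.41, above 0.1 in 3 of 7, 4 of 7 and 3 of 8 pairs. With the replicate number as a block, CLDN8 (-1.86) and PARD6B (-1.3) were not called in SEA against CTRL, nor CLDN8 (-1.36) in MEA against CTRL. Among values not called, normexp brought TJP3 to -0.4 and PARD6B to -0.06 in MEA against CTRL, and CLDN8 to -0.15, TJP3 to -0.49 and PARD6B to -0.13 in SEA against MEA. There PARD6B was -1.05 with 75th percentile scaling, and CLDN8 was -0.16 with the covariate, -0.71 without SEA 5 and -0.3 without MEA 7. The number of called transcripts over the whole array fell from 1612 to 842 with normexp in SEA against CTRL. In MEA against CTRL it fell from 482 to 157 with normexp, 183 with the slide as a block, 138 with the replicate block and 0 with the epithelial covariate (limma, 610 at an unadjusted p below 0.05). In SEA against MEA, 110 became 0 with 75th percentile scaling, normexp, the slide block and the replicate block (limma, 978, 848, 659 and 638 at an unadjusted p below 0.05), 24 with quantile normalization, 25 with the rank sum test, 37 with the covariate and 279 with all 25 arrays in 1 fit. The cause of these changes was not tested.

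With 1 horse left out at a time, SEA against CTRL ranged from -2.58 to -2.07 for CLDN7, -2.14 to -1.5 for CLDN8, -1.86 to -1.36 for TJP3, -1.45 to -0.95 for PARD6B, and 1238 to 1706 calls. MEA against CTRL ranged from -1.34 to -0.85, -1.65 to -1.07, -0.94 to -0.66 and -0.76 to -0.43 in the same order, with 156 to 750 calls. SEA against MEA ranged from -1.46 to -0.99, -0.71 to -0.07, -1.08 to -0.58 and -0.85 to -0.38, with 2 to 559 calls. Correlations with the counted epithelial percentage passed under none of the alternatives. The correlation of CLDN8 with PARD6B weakened with quantile normalization (0.36) and without the 2 farthest horses (0.39), and the other 5 pairs kept their side of the threshold. CLDN8 and PARD6B near background limit what these arrays resolve in the lowest horses.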
